A study of Mus musculus with 20 samples.

Results

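The 40 genes described here are interferon-stimulated genes, chosen by symbol from a table of 54986 mouse genes. They were listed with earlier results of these data in view, so what the list was chosen for is described below and not tested. The symbol of every one matched a single row of the table. They comprise 4 genes of the IFIT family, 6 of the OAS family, 6 large GTPases, 4 transcription factors, 4 nucleic acid sensors, 6 genes of ISG15 conjugation and of ubiquitin or ADP-ribose transfer, and 10 other effectors. Of the 40, 23 had at least 1 read per 1e+06 reads (CPM, counts scaled to a fixed total) in at least 2 of the 20 libraries and entered the fit of 17103 genes, and 17 did not.

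RNA was sequenced from NMuMG, an epithelial line from normal mouse mammary gland, and from lines made from it. NMuMG was studied without treatment, with TGFβ (NMuMG TGFβ) and with an shRNA against Pcbp1, the gene of hnRNP E1 (E1KD), and M1P and L1P are E1KD cells recovered from a mammary tumor and from lung metastases of NOD/SCID mice and grown again in culture under puromycin, for which they carry a resistance gene. Such hosts lack T and B cells and keep myeloid cells. Further lines carried an empty expression vector (Empty vector), a vector for the long noncoding RNA Platr18 (2 lines labelled cl12 and cl16, each counted here as a clone), or the hnRNP E1 shRNA together with a scrambled shRNA (E1KD SCR) or with one that targets Platr18 (E1KD Platr18 KD). Each of the 10 conditions had 2 libraries, and nothing in the labels says whether those came from separate cultures, so the errors given here may be technical.

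Interferons are secreted proteins that cells release when sensors such as Ddx58 (RIG-I) and Ifih1 (MDA5) bind viral RNA. Type I and type III interferons act through receptors that activate the kinases Jak1 and Tyk2. Stat2 and Irf9 are parts of the complex ISGF3 that then forms, and it binds interferon-stimulated response elements in the promoters of antiviral genes. Several of those genes, among them the IFIT genes and Irf1, can also be switched on without interferon, by Irf3 or NF-κB. In epithelial cells the same genes keep a low tonic level, and transduced vectors and short hairpin RNAs are among the agents known to raise them.

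The core of that response element, TTTC, any 2 bases, TTTC, was searched on both strands of RefSeq promoter windows that run from 250 bases before to 50 bases after the start of each gene (GRCm38.p6). Overlapping matches were counted separately. Windows were found by symbol for 28 of the 40 genes, and 15 of them held a match (53.6%), against 3.99% of the 27025 symbols with a window. The members with a match were Ifit1, Ifit3, Ifit3b, Isg15, Oas1a, Oas3, Rsad2, Bst2, Stat2, Eif2ak2, Ddx58, Ifih1, Gbp2, Gbp3 and Gbp7. No match was found in the windows of Ifit2, Isg20, Oasl1, Oasl2, Irf1, Irf7, Irf9, Ifi44, Ifi35, Xaf1, Cmpk2, Dtx3l and Trim25, which says only that these letters are not in these windows. The members without a window were Dhx58, Gvin1, Ifi27, Mx1, Mx2, Oas1b, Oas2, Parp14, Parp9, Rtp4, Usp18 and Zbp1.

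Stretches of 60 bases are shown for a pair of copies that varied together across the lines, Ifit3 and Ifit3b, and for 2 genes with the same element that were low in every library, Ifit1 and Isg15; these 4 were chosen after their values were seen. Capitals mark the matches. The Ifit3 stretch lies at chr19:34583365-34583424 on the plus strand, the Ifit3b stretch at chr19:34607761-34607820 on the plus strand, the Ifit1 stretch at chr19:34640777-34640836 on the plus strand and the Isg15 stretch at chr4:156200845-156200904 on the minus strand.
Ifit3: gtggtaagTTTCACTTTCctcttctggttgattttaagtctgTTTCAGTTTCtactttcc
Ifit3b: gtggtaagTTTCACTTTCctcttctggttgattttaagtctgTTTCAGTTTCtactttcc
Ifit1: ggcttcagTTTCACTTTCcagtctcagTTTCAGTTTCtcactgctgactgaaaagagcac
Isg15: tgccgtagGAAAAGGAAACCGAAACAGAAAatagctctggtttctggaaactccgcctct
The Ifit3 and Ifit3b stretches were identical at 60 of 60 bases, with 2 matches each. Ifit1 had 2 matches and Isg15 had 3 overlapping ones.

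The 20 libraries fell into 2 kinds. In the first kind (NMuMG, NMuMG TGFβ, E1KD, M1P and L1P) the mitochondrial ribosomal RNA mt-Rnr2 was at 333 to 492 CPM and the nuclear RNA Rn7sk at 0.419 to 8.996 CPM, and in the second kind (the 5 vector lines) at 113874 to 165149 CPM and at 6461 to 10097 CPM. Lines were therefore compared only within a kind. Both kinds hold lines with a vector, since E1KD, M1P and L1P carry the hnRNP E1 shRNA, and only NMuMG and NMuMG TGFβ were given none. The values had been scaled to 50.8 M to 60.03 M reads (M for 1e+06) in the first kind and to 63.0 M to 147.3 M reads in the second, so that 3 reads were worth 0.04998 to 0.0591 CPM and 0.0204 to 0.0477 CPM, and such figures cover counting error only. Pcbp1 was at 287 and 312 CPM in NMuMG against 16.6 and 14.2 CPM in E1KD, 32.3 and 32.3 CPM in Empty vector against 3.28 and 3.46 CPM in E1KD SCR. Platr18, listed as Lncenc1, had 3.68 and 3.06 CPM in Empty vector, 3092 and 3096 CPM in clone 12, 813 and 820 CPM in clone 16, 2.92 and 3.10 CPM in E1KD SCR and 0.136 and 0.170 CPM in E1KD Platr18 KD. The 5 epithelial markers summed to 1333 to 4004 CPM, although Epcam stayed under 0.05 CPM everywhere, and the 8 leukocyte markers to 2.48 to 7.25 CPM, with Adgre1 under 0.05 CPM. The 3 endothelial markers summed to at most 0.541 CPM.

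The interferon genes themselves were at or near 0. Ifna1, Ifna2, Ifna4, Ifnk, Ifnl2 and Ifnl3 were listed at 0 in every library. Ifnb1, the first type I interferon made in most infected cells, had at most 0.0197 CPM, Ifne at most 0.0446 CPM and Ifng at most 0.125 CPM. The receptors were present in all lines. Ifnar1 and Ifnar2, the 2 chains of the type I receptor, had 22.7 to 76.3 CPM and 6.12 to 13.7 CPM. Ifnlr1 and Il10rb, the chains of the type III receptor, had 8.70 to 23.6 CPM and 5.38 to 13.7 CPM, and the interferon γ receptor genes Ifngr1 and Ifngr2 had 45.9 to 64.3 CPM and 17.01 to 84.7 CPM.

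The 17 members below 1 CPM included many of those that respond most to interferon. None of them exceeded 0.981 CPM in any library, and 12 stayed under 0.5 CPM in all 20. Isg15, the ubiquitin-like modifier, had at most 0.334 CPM in the first kind of library and at most 0.0953 CPM in the second. Rsad2 (viperin) reached 0.0777 CPM and exceeded 3 reads in only 2 libraries, and Ifi44 reached 0.214 CPM. The OAS genes Oas1a, Oas1b, Oas2 and Oas3 had highest values of 0.718, 0.233, 0.311 and 0.216 CPM, and all 4 reached them in L1P. The GTPase genes Gbp2, Gbp3, Gbp7 and Mx2 reached 0.233, 0.0981, 0.234 and 0.341 CPM. Oas1b and Mx2 are annotated as polymorphic pseudogenes. Xaf1, Dhx58, Cmpk2, Rtp4 and Zbp1 reached 0.506, 0.614, 0.240, 0.656 and 0.122 CPM, and Rtp4 overlaps Masp1 on the other strand, which had up to 122.7 CPM. The largest of the 17 values belonged to Mx1, an antiviral GTPase, in E1KD Platr18 KD, where it had 0.937 and 0.981 CPM, against 0.244 and 0.206 CPM in E1KD SCR and 0.0685 and 0.0724 CPM in Empty vector. Those values did not overlap between the 3 lines, but they fell short of the filter and were not tested.

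**Figure D1:**
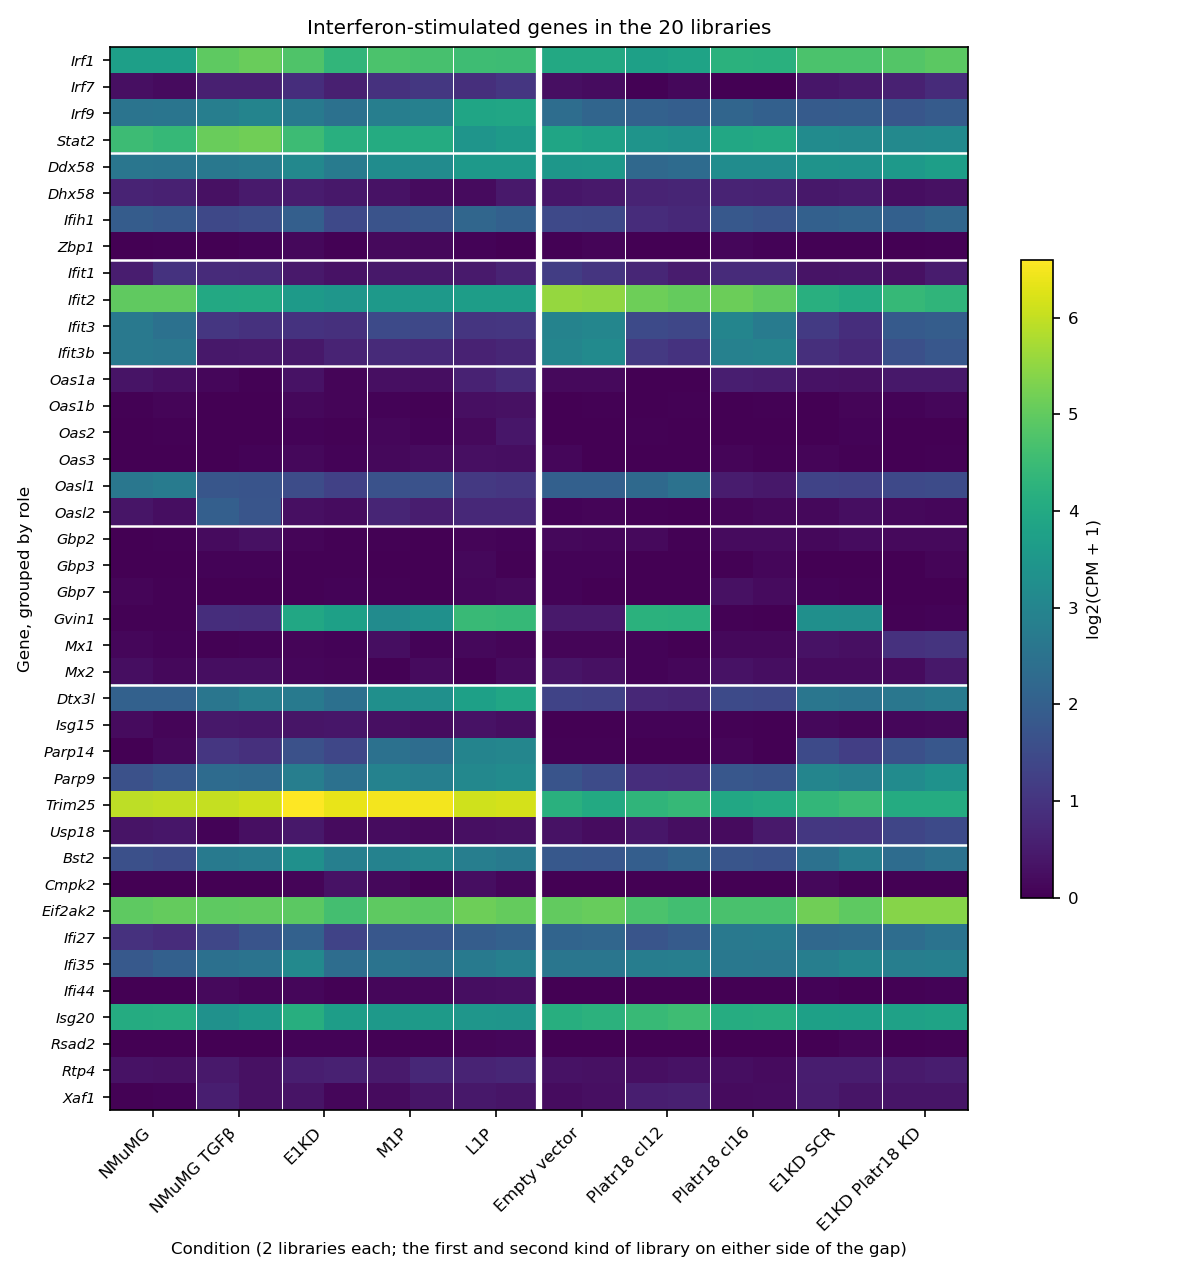
Level of the 40 interferon-stimulated genes (rows, grouped by role) in the 20 libraries (columns, 2 per condition), as log2(CPM + 1), with the first kind of library left of the wide gap and the second right of it. Most GBP, MX and OAS rows stay dark in all columns, while Ifit3 and Ifit3b are bright in NMuMG, Empty vector and Platr18 clone 16, and Gvin1 in E1KD, M1P, L1P, Platr18 clone 12 and E1KD SCR.

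The first question was what silencing of hnRNP E1, which drives these cells through an epithelial-mesenchymal transition, did to the members. Neither comparison had a control with a matching shRNA: E1KD was set against cells without a vector, and E1KD SCR, with 2 shRNAs, against cells with an empty expression vector, so hnRNP E1 silencing and the carrying of an shRNA cannot be told apart here. Some members were lower and others higher. Ifit2, Ifit3 and Ifit3b, whose proteins bind viral RNA and translation factors, were lower in the silenced lines, and Gvin1 and Parp14 were higher. Between E1KD and NMuMG, 7 of the 23 members tested were called (a log2 fold change of 1 or more in size, at p under 0.001 before adjustment), where 9.44% of all genes tested were. Between E1KD SCR and Empty vector it was also 7 of 23, where 5.98% of all genes were. The lists share 5 genes, which is 71.4% of each, where over all genes 693 were called in both, 42.9% of those of the first comparison and 67.8% of those of the second. Of the 23 members 17 had the same sign in both comparisons, near the 72.0% of all genes. Across the 23 members the log2 fold changes of the 2 comparisons had a Pearson r of 0.91, which describes genes and not samples, against 0.78 across all genes tested. These comparisons have no library in common, but the E1KD lines of both carry an hnRNP E1 shRNA.

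Ifit2 had 30.6 and 30.9 CPM in NMuMG against 11.2 and 10.1 CPM in E1KD, and 46.2 and 44.3 CPM in Empty vector against 16.96 and 15.2 CPM in E1KD SCR. The silenced libraries were thus at 0.346 and 0.356 times the mean of their controls, with no overlap, and the log2 fold changes on the CPM + 1 scale were -1.45 ± 0.075 and -1.44 ± 0.075 (standard error of the fit, n = 2 libraries a line). Ifit3 had 5.31 and 4.51 CPM in NMuMG against 0.965 and 0.887 CPM in E1KD, and 6.75 and 7.18 CPM in Empty vector against 1.19 and 0.826 CPM in E1KD SCR (-1.61 ± 0.10 and -1.99 ± 0.10). Ifit3b had 5.33 and 5.09 CPM in NMuMG against 0.354 and 0.573 CPM in E1KD, and 7.03 and 7.95 CPM in Empty vector against 0.866 and 0.683 CPM in E1KD SCR (-2.09 ± 0.090 and -2.26 ± 0.090). Both genes were picked among members without overlap, and both were lower in every silenced library than in any control library of the same kind. Ifit3 and Ifit3b are near-identical copies, and how the reads were divided between them is uncertain. Ifit1, the fourth of the family, had 0.443 and 0.943 CPM in NMuMG against 0.374 and 0.240 CPM in E1KD, and 1.30 and 1.01 CPM in Empty vector against 0.271 and 0.302 CPM in E1KD SCR.

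The 4 IFIT genes lie next to each other on the plus strand, from 34550694 (Ifit2) to 34650010 (Ifit1) on chromosome 19 of GRCm38. The 3 other tested genes within 200 kb were lower as well. Slc16a12, a transporter gene beyond Ifit1 on the other strand, fell from 80.7 and 78.2 CPM in NMuMG to 0.610 and 0.499 CPM in E1KD (log2 fold change -5.69, limma adjusted p = 2.3e-15). It fell from 103.8 and 91.0 CPM in Empty vector to 0.677 and 0.794 CPM in E1KD SCR (-5.82, adjusted p = 2.0e-15). Lipa, the lysosomal acid lipase gene before Ifit2, fell by 1.26 (adjusted p = 1.7e-08) and by 1.06 (adjusted p = 1.8e-07) on the log2 scale. Pank1, a pantothenate kinase gene farther out, had differences of -0.93 and -0.76, which were not called. These neighbours were looked at after the values of the IFIT genes were known, and their part in the IFIT values was not tested.

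**Figure D2:**
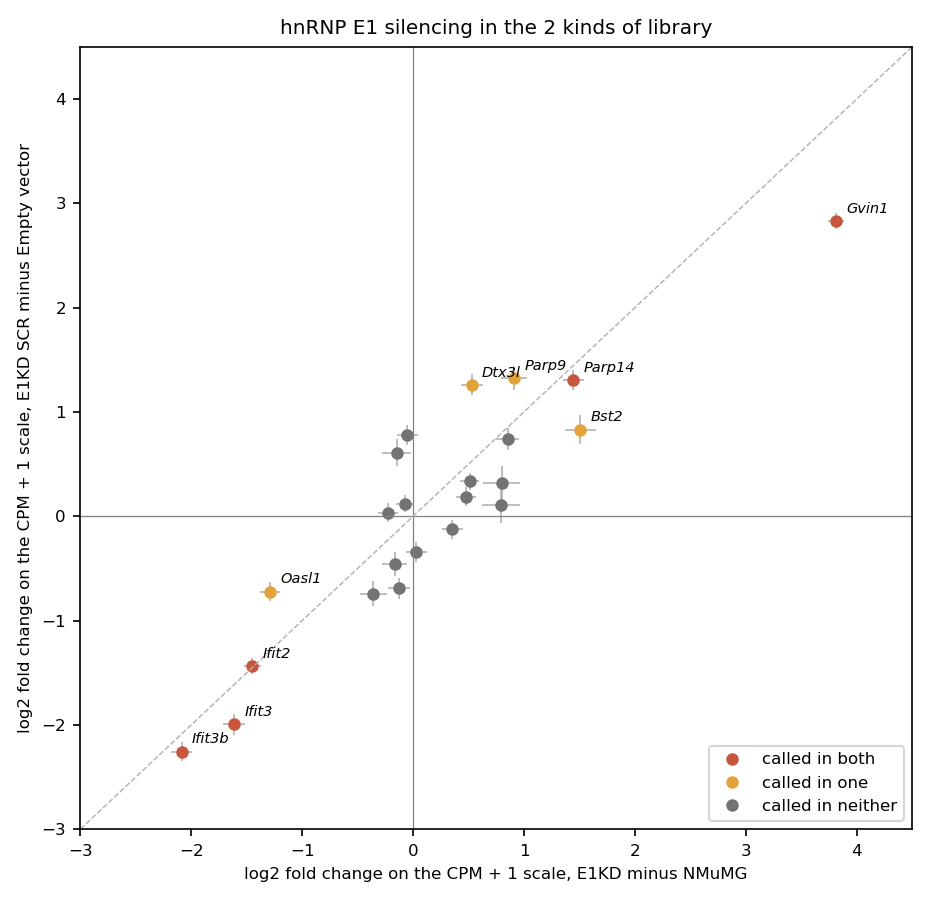
Log2 fold change (CPM + 1 scale) of the 23 tested interferon-stimulated genes after hnRNP E1 silencing, E1KD minus NMuMG on the x axis and E1KD SCR minus Empty vector on the y axis, with bars of 1 standard error and a dashed line of equal values. Ifit2, Ifit3 and Ifit3b lie at the lower left and Gvin1 and Parp14 at the upper right, and these 5 were called in both comparisons.

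Gvin1, a member of the very large interferon-inducible GTPases, had the largest difference of all members. It reached 1 CPM only in E1KD, M1P, L1P, Platr18 clone 12 and E1KD SCR, so it entered the fit through the lines in which it was higher. It had 0.0354 and 0.0189 CPM in NMuMG, which is under 3 reads, and 14.5 and 12.5 CPM in E1KD (log2 fold change 3.81 ± 0.075). In the second kind of library it had 0.356 and 0.362 CPM in Empty vector against 8.76 and 8.58 CPM in E1KD SCR (2.83 ± 0.075). Gvin1 lies at chr7:106156556-106215327 on the minus strand, among copies of the same family. RP23-454A11.1, on the same strand of chromosome 7 between 105895139 and 105953968, was at 0.177 and 0.0797 CPM in NMuMG against 16.8 and 13.5 CPM in E1KD, 0.452 and 0.348 CPM in Empty vector against 9.42 and 9.24 CPM in E1KD SCR. RP23-454A11.1 reached 1 CPM only in the lines named for Gvin1 and in NMuMG TGFβ, and entered the fit in the same way. Because the reads of such copies can be shared by the counting method, the level of Gvin1 alone is uncertain. The GTPase values below carry the same limit.

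Parp9, Dtx3l and Parp14 form a cluster on chromosome 16, and their proteins attach ADP-ribose or ubiquitin in the response to DNA damage and interferon. Parp14 was at 0.0177 and 0.0943 CPM in NMuMG against 2.13 and 1.64 CPM in E1KD, and at 0.0274 and 0.0290 CPM in Empty vector against 1.77 and 1.33 CPM in E1KD SCR, with log2 fold changes of 1.45 ± 0.098 and 1.31 ± 0.098. Parp9 had 2.13 and 2.50 CPM in NMuMG against 6.06 and 4.51 CPM in E1KD (0.91 ± 0.12), and 2.30 and 1.87 CPM in Empty vector against 7.05 and 6.39 CPM in E1KD SCR (1.33 ± 0.12). Dtx3l had 3.16 and 3.12 CPM in NMuMG against 5.59 and 4.40 CPM in E1KD (0.53 ± 0.10), and 1.51 and 1.42 CPM in Empty vector against 5.05 and 4.75 CPM in E1KD SCR (1.26 ± 0.10). All 3 were higher in each silenced library than in its controls, and Parp9 and Dtx3l were called in the second kind of library but not in the first. Parp14 reached 1 CPM only in lines with the hnRNP E1 shRNA and in NMuMG TGFβ replicate 1, and entered the fit through them. The fitted difference between the kinds was 0.41 ± 0.16 for Parp9 and 0.73 ± 0.14 for Dtx3l, and neither was called. Dtx3l and Parp9 overlap on opposite strands, and whether the counting used strand is not given in the sources used here. None of the 7 other tested genes within 200 kb of the cluster was called in either comparison, and their log2 fold changes lay between -0.44 and 0.65.

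Bst2 (tetherin), which holds budding virus at the cell surface, had 2.04 and 1.89 CPM in NMuMG against 8.88 and 6.19 CPM in E1KD (1.51 ± 0.14), and 2.51 and 2.45 CPM in Empty vector against 4.49 and 5.97 CPM in E1KD SCR (0.83 ± 0.14). Oasl1, an OAS-like protein that restrains translation of Irf7, had 5.17 and 5.69 CPM in NMuMG against 1.87 and 1.40 CPM in E1KD (-1.29 ± 0.091), and 3.07 and 3.08 CPM in Empty vector against 1.53 and 1.41 CPM in E1KD SCR (-0.72 ± 0.091). Each was called in the first comparison and not in the second, and neither overlapped with its controls in either. The fitted difference between the kinds was -0.68 ± 0.20 for Bst2 and 0.57 ± 0.13 for Oasl1, and neither was called.

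The summed leukocyte markers were 4.47 to 4.70 CPM in E1KD SCR against 2.48 to 2.97 CPM in Empty vector, and at least 2.88 CPM in E1KD against 2.75 to 2.76 CPM in NMuMG, and their part in these values was not tested. The factors of ISGF3 differed less. Stat2 had 21.9 and 20.6 CPM in NMuMG against 22.03 and 17.02 CPM in E1KD, which overlap, and 13.7 and 12.8 CPM in Empty vector against 8.01 and 7.61 CPM in E1KD SCR (-0.69 ± 0.099). Irf9 had 4.81 and 4.88 CPM in NMuMG against 5.45 and 4.51 CPM in E1KD, and 4.12 and 3.48 CPM in Empty vector against 2.72 and 2.82 CPM in E1KD SCR. Irf1, a factor also induced by inflammatory signals, was at 12.1 and 12.2 CPM in NMuMG and at 26.7 and 19.4 CPM in E1KD (0.85 ± 0.10), and at 14.9 and 14.8 CPM in Empty vector and at 25.5 and 25.4 CPM in E1KD SCR (0.74 ± 0.10). Irf7, the factor that amplifies the type I response, had 0.212 and 0.151 CPM in NMuMG against 0.807 and 0.499 CPM in E1KD, and 0.205 and 0.159 CPM in Empty vector against 0.311 and 0.381 CPM in E1KD SCR. Irf7 overlaps Phrf1 on the other strand, which had up to 110.8 CPM. Irf1 and Irf7 were thus higher in all silenced libraries, with differences under the limit of 1. With a pseudocount of 0.1 in place of 1, Irf7 was called between E1KD and NMuMG, where 13.8% of all genes were. It was not called between E1KD SCR and Empty vector, where 9.98% were.

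In E1KD replicate 1 the values sum to 728645 CPM, against 547491 to 581384 in the other libraries of its kind, and the median gene was 0.29 higher on the log2 scale than in replicate 2. The median of all tested genes was 0.17 between E1KD and NMuMG, and 0.04 and 0.02 once the libraries were rescaled to equal sums or by median-of-ratios factors. The median of the 23 members was 0.03, beside that 0.17, and in the second kind of library it was 0.12 beside 0.02. The same 7 members were called under both rescalings and without E1KD replicate 1. Without E1KD replicate 2, 11 were called, with Ifi27, Ifi35, Irf1 and Parp9 added, where 18.0% of all genes were. Whether the effect of silencing differed between the kinds of library was fitted for the 23 members and for the 52 other interferon pathway genes in the fit, described next, and 0 of either were called for the difference by limma, where 3.51% of all genes were. Of those 52, 21 had an unadjusted limma p under 0.05. No share over all genes is given for that count, so nothing is concluded from it. The median of all tested genes for this difference was -0.17. Some pathway genes had a small adjusted p with a size under the limit of 1, so the kinds cannot be taken as alike. Lower in the second kind were Apol9b (-0.82, limma adjusted p = 1.7e-05) and Herc6 (-0.92, adjusted p = 8.5e-04). Higher in it were Tlr3 (0.74, adjusted p = 2.4e-03) and Ifnlr1 (0.71, adjusted p = 1.7e-03).

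The pathway list holds 83 further genes with a single row each, of which 52 were tested. It too was chosen with earlier results of these data known, so its counts and p-values do not test that choice. Between E1KD and NMuMG, 5 of the 52 were called as higher and 3 as lower, where 9.44% of all genes were called. Between E1KD SCR and Empty vector 2 were called as higher and 4 as lower, where 5.98% of all genes were called. Parp12, a stress granule ADP-ribosyltransferase, was listed at 0 in NMuMG and in Empty vector and rose to 8.78 and 6.08 CPM in E1KD (log2 fold change 3.06, adjusted p = 1.0e-11) and to 7.78 and 7.78 CPM in E1KD SCR (3.13, adjusted p = 1.2e-11). Against 3 reads in a control library that is at least 131-fold and at least 179-fold higher. Parp12 reached 1 CPM only in lines with the hnRNP E1 shRNA, so it entered the fit through the lines in which it was higher. Samd9l, a translation inhibitor, fell from 66.4 and 67.2 CPM to 17.2 and 15.2 CPM (-1.98, adjusted p = 1.2e-10) and from 94.7 and 98.5 CPM to 18.98 and 17.3 CPM (-2.35, adjusted p = 2.5e-11). Apol9b rose from 0.319 and 0.264 CPM to 2.22 and 2.29 CPM in E1KD (1.34, limma adjusted p = 3.8e-10), and its copy Apol9a had the same course. Both copies reached 1 CPM only in NMuMG TGFβ, E1KD, M1P and L1P, and entered the fit through those lines. Tmem173 (STING), the adaptor of cytosolic DNA sensing, rose in both comparisons by 1.13 (adjusted p = 6.1e-06) and 1.19 (adjusted p = 5.5e-06). Herc6, the mouse ligase for ISG15, fell from 2.79 and 2.89 CPM in Empty vector to 0.338 and 0.544 CPM in E1KD SCR (-1.42, adjusted p = 1.5e-07). None of the 6 receptor genes was called in either comparison.

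**Figure D3:**
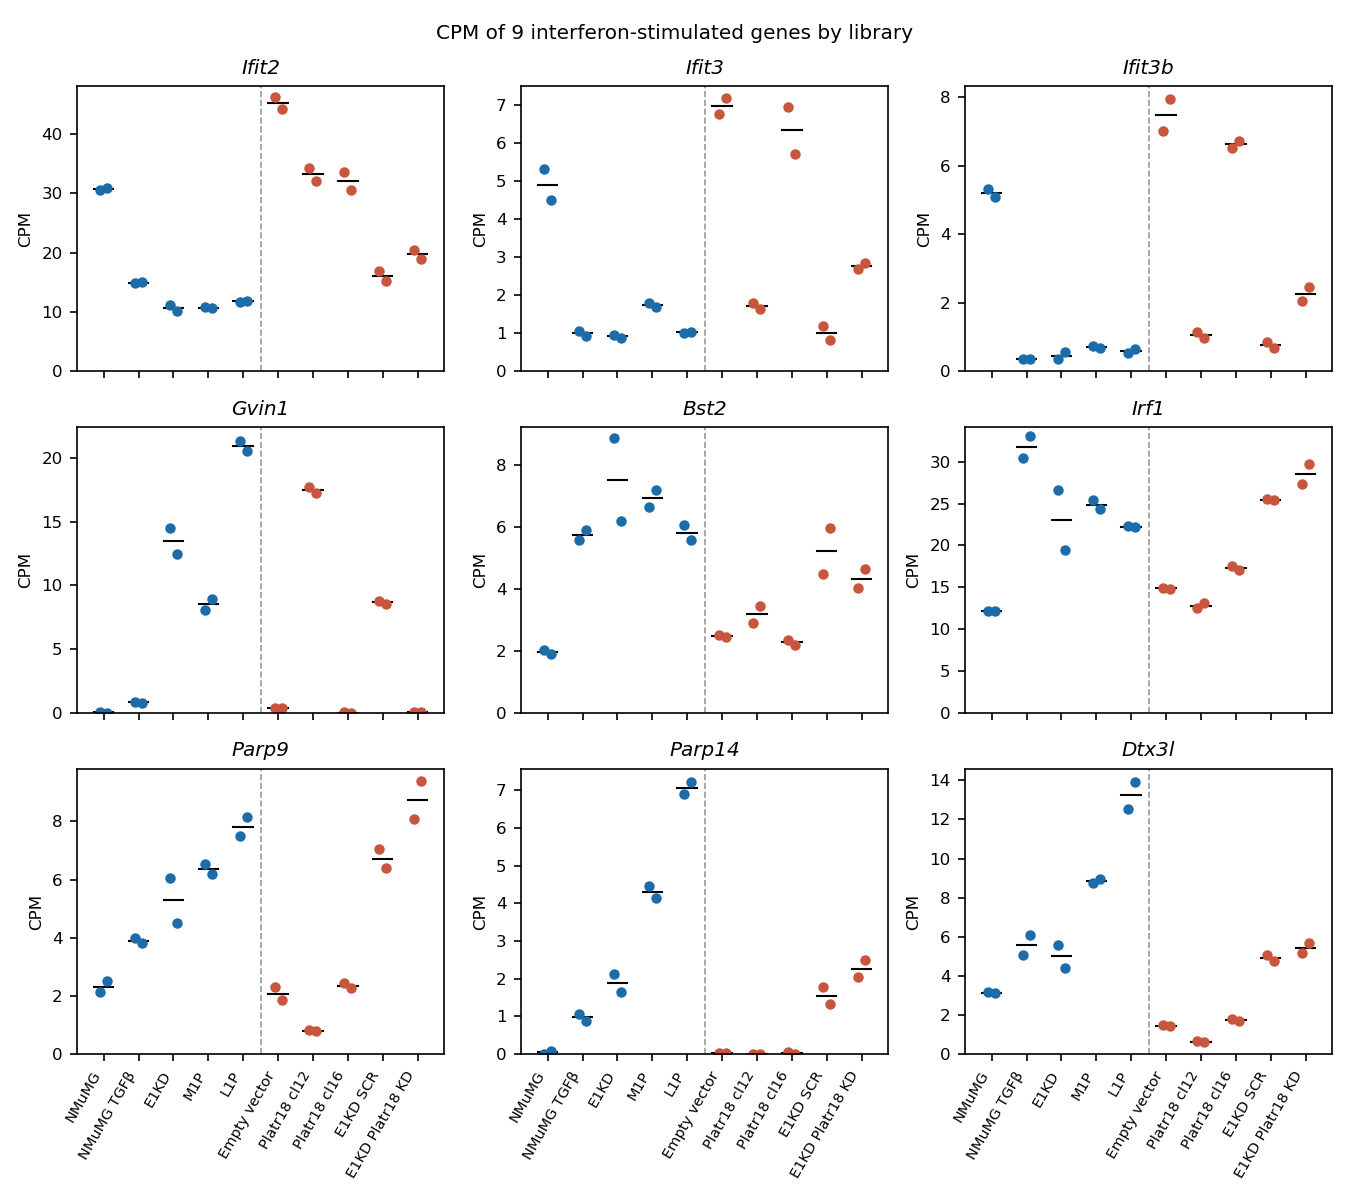
CPM of 9 interferon-stimulated genes in each library (points) of the 10 conditions, with the mean of the 2 libraries as a line, the first kind of library in blue and the second in red. Ifit2, Ifit3 and Ifit3b are lower in E1KD and E1KD SCR than in their controls, Parp9, Parp14 and Dtx3l are higher, and Gvin1 is near 0 in NMuMG, Platr18 clone 16 and E1KD Platr18 KD.

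The second question was what an shRNA against Platr18 did in E1KD cells. A single line with that shRNA was set against a single scrambled line. Loss of Platr18, other effects of the shRNA and differences between lines cannot be told apart here. Gvin1 was nearly absent in E1KD Platr18 KD, and the other members differed by less than the limit of 1. Gvin1 was also near 0 in Platr18 clone 16, with 0.0277 and 0.0140 CPM. Gvin1 had 8.76 and 8.58 CPM in E1KD SCR and 0.0339 and 0.0545 CPM in E1KD Platr18 KD (-3.21 ± 0.075). It was the 1 member called of 23, where 1.48% of all genes tested were. It had entered the fit through lines in which it was higher, E1KD SCR among them. The median of the members was 0.16 beside -0.02 for all genes. The copy RP23-454A11.1 fell as well, from 9.42 and 9.24 CPM to 0.0204 and 0.0204 CPM (-3.34, adjusted p = 2.4e-11).

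Ifit3 and Ifit3b were the next in size, and they were higher in the Platr18-silenced cells. Ifit3 had 1.19 and 0.826 CPM in E1KD SCR and 2.68 and 2.84 CPM in E1KD Platr18 KD, 2.74 times the mean (0.91 ± 0.10). Ifit3b had 0.866 and 0.683 CPM in E1KD SCR and 2.05 and 2.45 CPM in E1KD Platr18 KD, 2.91 times the mean (0.87 ± 0.090). Ifit2 had 16.96 and 15.2 CPM in E1KD SCR and 20.5 and 18.9 CPM in E1KD Platr18 KD (0.28 ± 0.075). The 3 genes did not overlap between the lines, which the rule for showing members required, and all stayed under their levels in Empty vector. With a pseudocount of 0.1 in place of 1 the log2 fold changes of Ifit3 and Ifit3b were 1.39 and 1.43 and both were called, and without E1KD SCR replicate 1 that of Ifit3 was 1.04 and it was called.

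Among the ADP-ribosyltransferases, Parp14 had 1.77 and 1.33 CPM in E1KD SCR and 2.05 and 2.49 CPM in E1KD Platr18 KD (0.36 ± 0.098), and Parp9 had 7.05 and 6.39 CPM and 8.08 and 9.38 CPM (0.33 ± 0.12). Usp18, which removes ISG15 and damps the type I receptor, had 1.08 and 1.05 CPM in E1KD SCR and 1.61 and 1.80 CPM in E1KD Platr18 KD (0.39 ± 0.096). Eif2ak2 (PKR), the kinase that stops translation on double-stranded RNA, had 35.0 and 30.3 CPM and 41.6 and 41.5 CPM (0.34 ± 0.090). Ddx58 had 9.43 and 9.28 CPM and 10.975 and 12.1 CPM (0.27 ± 0.093). Trim25, the ubiquitin ligase that activates RIG-I, was lower, with 19.5 and 21.5 CPM in E1KD SCR and 15.6 and 15.8 CPM in E1KD Platr18 KD (-0.36 ± 0.085). These 6 genes were picked among the members that did not overlap between the lines, so their lack of overlap is not a result.

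Of the factors, Irf7 had 0.311 and 0.381 CPM in E1KD SCR and 0.509 and 0.749 CPM in E1KD Platr18 KD (0.27 ± 0.090), and Irf1 had 25.5 and 25.4 CPM and 27.4 and 29.7 CPM (0.16 ± 0.10). Stat2 and Irf9 differed by -0.01 ± 0.099 and -0.08 ± 0.096. The remaining members, Ifit1, Isg20, Oasl1, Oasl2, Bst2, Ifi27, Ifi35, Ifih1 and Dtx3l, differed by between -0.22 and 0.18. Of the 52 pathway genes 1 was called as higher and 1 as lower, where 1.48% of all genes were called. Ikbke, a kinase that activates Irf3, rose from 4.45 and 4.13 CPM to 10.6 and 12.2 CPM (1.23, adjusted p = 1.2e-05), and Tmem173 fell from 6.23 and 5.02 CPM to 2.12 and 2.24 CPM (-1.05, adjusted p = 6.2e-05). Tmem173 was not called without E1KD SCR replicate 1 (-0.92) or with the libraries rescaled to equal sums (-0.98).

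Platr18-silenced E1KD cells were also set against Empty vector, which asks how far they stood from cells with hnRNP E1. Here 7 of the 23 members were called, where 6.61% of all genes were, and this comparison shares its control with the comparison of E1KD SCR and its silenced libraries with that of Platr18. Parp14 differed by 1.66 ± 0.098, Parp9 by 1.66 ± 0.12, Dtx3l by 1.38 ± 0.10 and Usp18 by 1.17 ± 0.096. Usp18 had 0.247 and 0.159 CPM in Empty vector against 1.61 and 1.80 CPM in E1KD Platr18 KD. It reached 1 CPM only in E1KD SCR and E1KD Platr18 KD, so it entered the fit through the lines in which it was higher. Ifit3b differed by -1.39 ± 0.090, Ifit2 by -1.16 ± 0.075 and Ifit3 by -1.08 ± 0.10, with Ifit3 not called once the libraries were rescaled to equal sums. Gvin1, at 0.0339 and 0.0545 CPM against 0.356 and 0.362 CPM in Empty vector, was the member that no longer stood above the control. Of the 52 pathway genes 2 rose and 2 fell. Parp12 rose by 3.42 (adjusted p = 4.5e-12) to 9.37 and 10.0 CPM from a listed 0, at least 223-fold against 3 reads. Herc6 fell by 1.66 (adjusted p = 2.3e-08) and Samd9l fell by 1.60 (adjusted p = 1.8e-09), and Ticam1 (TRIF), the adaptor of Tlr3, rose by 1.04 (adjusted p = 5.4e-07).

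The third question was how NMuMG cells overexpressing Platr18 differed from Empty vector, and the members differed between the 2 clones. Each clone is a single line, with Platr18 at 3092 and 3096 CPM in clone 12 and 813 and 820 CPM in clone 16. Platr18, its level and variation between clones cannot be told apart here. Against Empty vector, the mean of both clones gave 2 of 23 members called, where 1.46% of all genes were, Gvin1 with 1.68 ± 0.065 and Ifit3b with -1.10 ± 0.078. With a pseudocount of 0.1 it was 5, where 3.60% were. Neither value describes both clones. The summed leukocyte markers were 4.93 to 5.12 CPM in clone 12 and 5.08 to 5.33 CPM in clone 16 against 2.48 to 2.97 CPM in Empty vector, with no overlap. Adgre1 was listed at 0 in all 3 lines. The markers did not move together. Cd68 had 3.21 and 3.39 CPM in clone 12 and 1.57 and 1.98 CPM in clone 16, against 1.41 and 1.14 CPM in Empty vector. Csf1r had 1.32 and 1.14 CPM in clone 12 and 2.88 and 2.88 CPM in clone 16, against 0.753 and 0.507 CPM. Lyz2 was lower in both clones than in Empty vector, and Ptprc was lower in clone 12. The part of these markers in the values was not tested. Gvin1 had 17.7 and 17.3 CPM in clone 12 and 0.0277 and 0.0140 CPM in clone 16, with the 0.356 and 0.362 CPM of Empty vector between them. Ifit3b had 1.14 and 0.966 CPM in clone 12 and 6.53 and 6.73 CPM in clone 16, against 7.03 and 7.95 CPM in Empty vector. Ifit3 had 1.80 and 1.64 CPM in clone 12, 6.95 and 5.71 CPM in clone 16 and 6.75 and 7.18 CPM in Empty vector.

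Taken one by one, clone 12 had 4 of 23 members called against Empty vector, where 3.64% of all genes were, and clone 16 had 1, where 1.78% were. Those of clone 12 were Gvin1 (3.77 ± 0.075), Ifit3b (-2.05 ± 0.090), Ifit3 (-1.55 ± 0.10) and Ddx58 (-1.23 ± 0.093), and that of clone 16 was Oasl1 (-1.56 ± 0.091). Ddx58 had 3.73 and 3.91 CPM in clone 12, 8.33 and 8.28 CPM in clone 16 and 10.2 and 10.4 CPM in Empty vector. Oasl1 had 3.77 and 4.57 CPM in clone 12 and 0.429 and 0.335 CPM in clone 16, with 3.07 and 3.08 CPM in Empty vector. Directly between the clones 4 of 23 members were called, where 4.39% of all genes were, namely Gvin1, Oasl1, Ifit3b and Ifit3. Ifit2 was lower than in Empty vector in both clones, with 34.3 and 32.1 CPM and 33.5 and 30.5 CPM against 46.2 and 44.3 CPM. Eif2ak2 was also lower in both, with 25.5 and 23.3 CPM in clone 12, 25.1 and 25.2 CPM in clone 16 and 31.1 and 32.4 CPM in Empty vector.

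**Figure D4:**
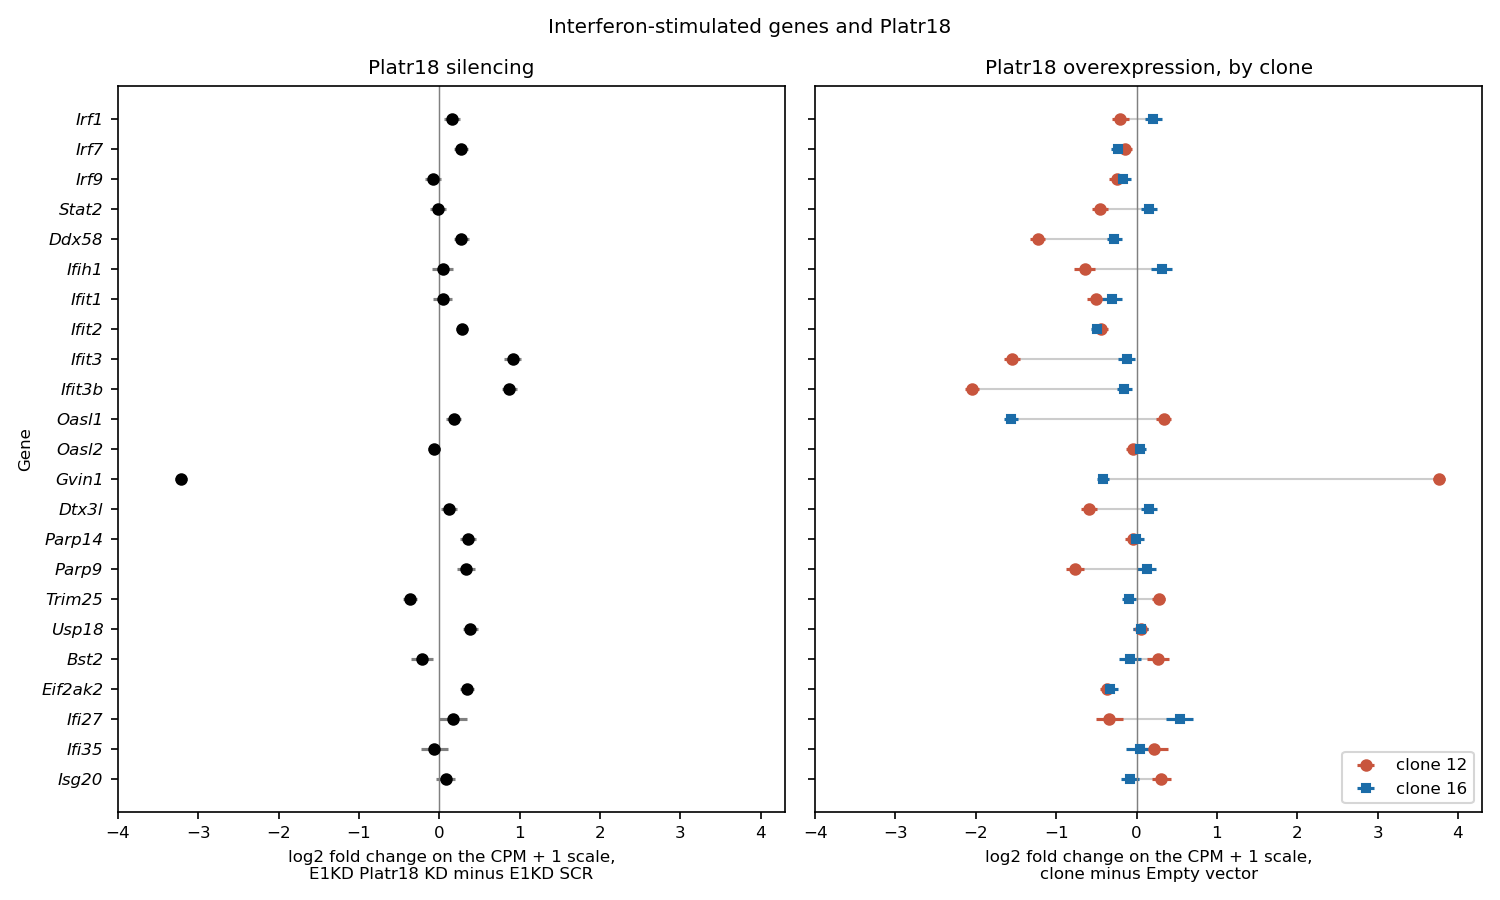
Log2 fold change (CPM + 1 scale, with bars of 1 standard error) of the 23 tested interferon-stimulated genes, for E1KD Platr18 KD minus E1KD SCR on the left and for each Platr18 clone minus Empty vector on the right. On the left Gvin1 stands alone at -3.21, and on the right the clones lie far apart for Gvin1, Ifit3b, Ifit3, Oasl1 and Ddx58.

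The clones also differed in genes of the pathway list. For the mean of both clones 1 of 52 genes was called, where 1.46% of all genes were. It was Herc6, which fell by 1.07 (limma adjusted p = 1.9e-06) but was not called once the libraries were rescaled to equal sums. In clone 12 Ifngr2, the signalling chain of the interferon γ receptor, fell from 50.7 and 54.3 CPM in Empty vector to 17.01 and 17.6 CPM (-1.55, adjusted p = 3.1e-08), and clone 16 had 56.6 and 56.8 CPM. Tmem173 rose to 5.85 and 6.06 CPM in clone 12 from 1.99 and 1.81 CPM (1.26, adjusted p = 4.3e-06), and clone 16 had 1.16 and 1.13 CPM. Ifnar1 had 22.7 and 23.6 CPM in clone 12, 44.0 and 43.3 CPM in clone 16 and 38.6 and 39.4 CPM in Empty vector, a difference between clone 12 and Empty vector of -0.73 (adjusted p = 4.4e-06) that stayed under the limit.

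TGFβ treatment of NMuMG, which brings on the same transition from outside, gave 5 of 23 members called, where 13.5% of all genes were. With a pseudocount of 0.1 it was 11, where 18.4% were. Oasl2, among the 5, reached 1 CPM only in the NMuMG TGFβ libraries, so it entered the fit through the group in which it was higher. The median of the members was 0.34 beside -0.08 for all genes. Ifit3b had 5.33 and 5.09 CPM in NMuMG against 0.351 and 0.367 CPM after TGFβ (-2.19 ± 0.090), and Ifit3 had 5.31 and 4.51 CPM and 1.07 and 0.933 CPM (-1.56 ± 0.10). Ifit2 lay just short of the limit, with 30.6 and 30.9 CPM and 14.8 and 15.03 CPM (-0.996 ± 0.075), and was called without either NMuMG replicate 1 or NMuMG TGFβ replicate 2. Slc16a12, next to the IFIT genes, fell to 3.41 and 3.40 CPM (-4.19, adjusted p = 2.9e-14), Pank1 fell from 20.6 and 20.8 CPM to 7.33 and 8.41 CPM (-1.29, adjusted p = 5.5e-08), and Lipa had 91.6 and 90.6 CPM against 101.4 and 101.1 CPM.

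Higher after TGFβ were Oasl2, Irf1 and Bst2. Oasl2 had 0.301 and 0.189 CPM in NMuMG against 2.97 and 2.33 CPM after TGFβ (1.55 ± 0.078), and 0.699 CPM or less in each of the other 16 libraries. Irf1 had 12.1 and 12.2 CPM and 30.4 and 33.1 CPM (1.31 ± 0.10), and Bst2 had 2.04 and 1.89 CPM and 5.59 and 5.91 CPM (1.19 ± 0.14). Stat2 had 21.9 and 20.6 CPM and 32.9 and 34.7 CPM (0.65 ± 0.099), Irf9 differed by 0.35 ± 0.096 and Irf7 by 0.34 ± 0.090. Parp14 had 0.0177 and 0.0943 CPM and 1.07 and 0.883 CPM (0.90 ± 0.098), and was called once the libraries were rescaled to equal sums. Gvin1 had 0.835 and 0.783 CPM after TGFβ, far under its level in E1KD. Of the members, Ifit3, Ifit3b and Bst2 were called after both TGFβ and hnRNP E1 silencing, which share the NMuMG libraries.

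Of the 52 pathway genes 7 were called as higher and 2 as lower after TGFβ, where 13.5% of all genes were called. Apol9b rose from 0.319 and 0.264 CPM to 7.54 and 8.16 CPM (2.78, limma adjusted p = 1.1e-13) and Apol9a to 5.31 and 5.46 CPM (2.34, adjusted p = 7.9e-12). Both had entered the fit through lines in which they were higher, NMuMG TGFβ among them. Irgm2, an immunity-related GTPase of the interferon γ response, rose from 2.18 and 2.09 CPM to 11.6 and 10.6 CPM (1.95, adjusted p = 8.2e-11). The type I receptor gene Ifnar1 had 40.9 and 41.0 CPM and 73.8 and 76.3 CPM, 0.86 on the log2 scale (adjusted p = 2.5e-07) and under the limit. The summed leukocyte markers were 2.75 and 2.76 CPM in NMuMG and between 6.48 and 7.25 CPM after TGFβ, mainly Csf1r at 4.45 and 4.76 CPM, while Ptprc had at most 0.0334 CPM there and Adgre1 was listed at 0.

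The last comparisons followed E1KD cells through the mouse. Between the primary tumor line M1P and E1KD, 0 of 23 members were called by limma, where 3.59% of all genes were, and the median of the members was 0.12 beside -0.17 for all genes, which was -0.04 and -0.01 after the 2 rescalings. Parp14 had 2.13 and 1.64 CPM in E1KD and 4.47 and 4.15 CPM in M1P (0.88 ± 0.098), and it was called under both rescalings (1.05 and 1.03) and without E1KD replicate 1 (1.004). Dtx3l had 5.59 and 4.40 CPM in E1KD and 8.76 and 8.96 CPM in M1P (0.72 ± 0.10). Gvin1 was lower, with 14.5 and 12.5 CPM in E1KD and 8.05 and 8.97 CPM in M1P (-0.61 ± 0.075). These 3 were picked among the members that did not overlap between the lines. Of the 52 pathway genes Parp12 alone was called, and it fell to 2.97 and 3.12 CPM (-1.04, adjusted p = 4.0e-06), but not under either rescaling (-0.91 with equal sums) nor without E1KD replicate 1 (-0.81).

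Between the lung metastasis line L1P and M1P, 2 of 23 members were called, where 1.21% of all genes were. Gvin1 had 8.05 and 8.97 CPM in M1P against 21.3 and 20.5 CPM in L1P (1.21 ± 0.075), its highest level in this kind of library. Parp14 had 4.47 and 4.15 CPM in M1P against 6.89 and 7.20 CPM in L1P (0.60 ± 0.098), and Dtx3l had 8.76 and 8.96 CPM and 12.6 and 13.9 CPM (0.53 ± 0.10). Parp14 thus had its lowest first-kind level in NMuMG and successively higher ones in E1KD, M1P and L1P, with no overlap between neighbouring lines. For the steps to M1P and L1P the rule for showing members required that. Ifit3 and Ifit3b stayed low, at 1.02 and 1.05 CPM and at 0.549 and 0.641 CPM in L1P. Gbp9 was the 1 pathway gene called, and it rose from 0.820 and 0.603 CPM to 2.98 and 2.56 CPM (1.14, adjusted p = 1.4e-05). Lyz2, a myeloid marker, had 3.23 and 2.87 CPM in M1P against 4.57 and 4.74 CPM in L1P. It had 0.443 CPM or less in the other first-kind libraries. The leukocyte markers did not move together. Csf1r fell from E1KD, where its libraries were at 1.65 and 1.02 CPM, to 0.108 and 0.135 CPM for M1P. For L1P it was at 0.438 and 0.261 CPM. Cd68 stayed between 1.66 and 2.79 CPM across E1KD, M1P and L1P, and Ptprc had at most 0.0709 CPM in M1P and L1P. The part of host cells in these values was not tested.

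Irf9, the DNA-binding subunit of ISGF3, was the other member called in L1P. It had 6.06 and 6.34 CPM in M1P against 13.8 and 14.0 CPM in L1P (1.05 ± 0.096), and no more than 6.91 CPM in any other library. After median-of-ratios rescaling it lay just under the limit and was not called. The genes beside it on chromosome 14 shared the difference. Rnf31, which lies before Irf9 on the same strand and overlaps its first bases, rose from 5.67 and 6.29 CPM to 13.5 and 13.8 CPM (1.07, adjusted p = 1.9e-04). Among the genes with a mean of at least 5 CPM in the 4 libraries, all 14 from Pck2 to Khnyn, a stretch of 359 kb at chr14:55540266-55898776 that includes Irf9, were called, with log2 fold changes between 1.03 and 1.54 and a median of 1.15. Of the 11 such genes before this stretch and the 3 after it, within 1000 kb of the start of Irf9, none was called, and their medians were 0.04 and 0.13. The stretch was marked out after its values were seen, and it holds no other member. The same median, taken for the 15 other genes within 500 kb of Irf9 with a mean of at least 5 CPM in all libraries, was 0.12 in M1P against E1KD and 0.0027 in E1KD against NMuMG.

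**Figure D5:**
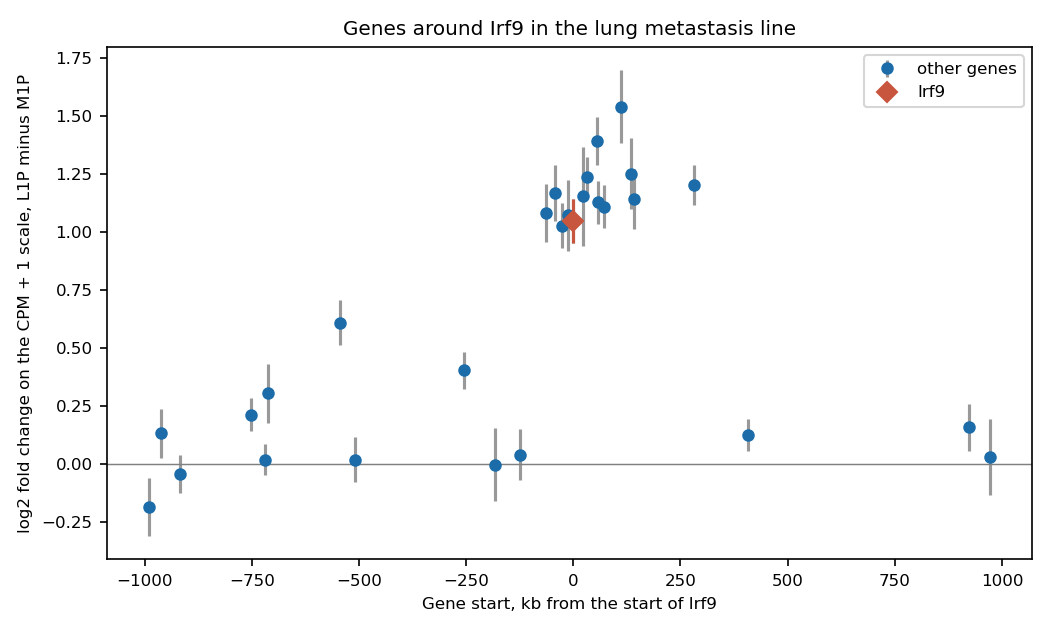
Log2 fold change (CPM + 1 scale) between L1P and M1P, with bars of 1 standard error, of the tested genes with a mean of at least 5 CPM in these 4 libraries, by the distance of their start from that of Irf9 in kb. The 14 genes around Irf9 lie between 1.03 and 1.54, and those farther out on both sides between -0.19 and 0.61.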

How the data were processed

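The authors deposited 1 table of CPM (reads per gene, scaled to a fixed total) with 0.0001 added to every value. By the study's methods, HiSeq2500 reads were placed on the genome by Bowtie2 and split among mouse M18 genes by Partek's expectation-maximization method. The submitters' processing notes name Bowtie2 2.2.5 and GRCm38.p6. The 0.0001 was subtracted. Low values were whole multiples of 1 read, within 0.02 reads, for 88.1% to 89.3% of values in the first kind of library and 96.7% to 97.3% in the second, so counts were not recovered. The fit was made on log2(CPM + 1) by limma 3.58.1 under R 4.3.3 (eBayes with trend, 10 condition means, 10 residual degrees of freedom), for genes reaching 1 CPM in 2 or more libraries. On this scale fold changes of low genes are understated. Adjusted p-values are Benjamini-Hochberg over all 17103 genes. The fit was tested on simulated data.

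The members and the pathway list were chosen with earlier results of these data known, so no p is given for members. Adjusted p-values printed for pathway genes carry the same limit. They set a difference against its error, and neither they nor the counts test why the list was chosen. Members were shown library by library if among the 10 largest differences in Platr18 silencing, or the 3 largest in another comparison, with groups that did not overlap, or if Stat2, Irf1, Irf7 or Irf9. Receptors, ligands and the 3 largest called pathway genes were also named, and other members and genes were added after their values were seen. Ifi30, Slfn2 and Ifi47 have several rows and were left out, and some items are not reported here. Smallest exact p-values for 2 against 2 libraries are 0.333, so no permutation test was used. Promoter windows are from RefSeq (GRCm38.p6). The alternatives were pseudocount 0.1, no filter, a mean of at least 5 CPM, 2 rescalings, only the compared groups, a replicate block, adjusted p under 0.05 and leaving out each library. Python 3.11.15, numpy 2.4.6, pandas 2.3.3 and matplotlib 3.10.9 were used.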

Additional observations from a re-analysis of the deposited data

Results flagged for a closer look

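The 2 Platr18 clones differed from each other. Each is a single line and their Platr18 levels differ, so Platr18, its level and variation between clones cannot be told apart. Of the 52 pathway genes tested directly between clone 16 and clone 12, 6 were called by limma, where 4.39% of all genes were. They were Ifngr2 (log2 fold change 1.66, adjusted p = 1.3e-08), Tmem173 (-1.70, adjusted p = 1.9e-07), Herc6 (1.37, adjusted p = 3.1e-07), Tor3a (1.29, adjusted p = 5.1e-08), Ikbke (1.21, adjusted p = 4.5e-06) and Samd9l (1.10, adjusted p = 1.9e-07). Of the 23 tested interferon-stimulated genes, 9 had both libraries of 1 clone above and both of the other below the 2 Empty vector libraries, where 21.5% of all tested genes did. The difference of clone 16 minus clone 12 on the log2 scale was -4.18 for Gvin1, -1.90 for Oasl1, 0.96 for Ifih1, 0.88 for Ifi27, 0.74 for Dtx3l, 0.61 for Stat2, 0.41 for Irf1, -0.39 for Isg20 and -0.35 for Bst2. Gvin1 and Oasl1 were called in the direct comparison of the clones and the other 7 were not.

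After hnRNP E1 silencing, Ddx58 was higher in both E1KD libraries than in NMuMG and lower in both E1KD SCR libraries than in Empty vector. The second difference minus the first was -0.48 ± 0.13 and was not called, and 6.23% of all tested genes had such opposite directions. The median of all genes for the same difference was -0.17.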

How the results depend on the processing

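With a pseudocount of 0.1 in place of 1, the members called numbered 3 for Platr18 silencing, 11 for E1KD SCR against Empty vector, 5 for Platr18 overexpression, 11 for TGFβ and 2 for M1P, and the pathway genes called 9 for E1KD Platr18 KD against Empty vector, 14 for E1KD SCR, 5 for Platr18 overexpression, 5 for M1P and 3 for L1P. Over all genes that pseudocount raised the share called from 1.48% to 3.70% for Platr18 silencing, from 6.61% to 10.3% for E1KD Platr18 KD against Empty vector, from 5.98% to 9.98% for E1KD SCR, from 3.59% to 6.61% for M1P and from 1.21% to 2.72% for L1P. For Platr18 overexpression the share went from 1.46% to 3.60%, and for TGFβ from 13.5% to 18.4%. For hnRNP E1 silencing it went from 9.44% to 13.8%, and Ifi27, Irf7 and Parp9 were added to the members called. With a mean of at least 5 CPM only 10 members and 35 pathway genes entered the fit; 1, 2, 1, 2 and 1 members were called for E1KD Platr18 KD against Empty vector, E1KD SCR, Platr18 overexpression, hnRNP E1 silencing and TGFβ, and 1, 2, 2, 0, 3, 4, 0 and 0 pathway genes for Platr18 silencing, those 5 comparisons in the same order, M1P and L1P, where between 0.999% (L1P) and 14.8% (TGFβ) of all genes were called. In the order given for the pathway genes, those shares were 1.21%, 5.61%, 4.84%, 1.10%, 8.23%, 14.8%, 2.86% and 0.999%. Rescaling to equal sums gave 1 member for M1P, and 1, 0 and 0 pathway genes for Platr18 silencing, Platr18 overexpression and M1P. Over all genes 1.40%, 1.29% and 3.81% were called in these 3 comparisons. Median-of-ratios factors gave 1 member each for M1P and L1P and 0 pathway genes for M1P, as did a fit of only the compared groups for the latter. Over all genes 3.56% and 1.17% were called for M1P and L1P with these factors, and 3.60% for M1P in that fit. The cause of these changes was not tested, beyond the smaller number of genes in the fit.

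Leaving out 1 library at a time gave 1 to 2 members and 1 to 2 pathway genes for Platr18 silencing, 7 to 8 members and 6 to 9 pathway genes for E1KD SCR, 7 to 11 and 7 to 8 for hnRNP E1 silencing, 5 to 6 and 9 for TGFβ, and 0 to 1 and 0 to 2 for M1P. It gave 7 members and 3 to 4 pathway genes for E1KD Platr18 KD against Empty vector, 2 and 1 for Platr18 overexpression and 2 and 1 for L1P. The extremes for Platr18 silencing came without E1KD SCR replicate 1 (2 members, 1 pathway gene), for hnRNP E1 silencing without E1KD replicate 2 (11 members), and for M1P without E1KD replicate 1 (1 member, 0 pathway genes) or without E1KD replicate 2 (2 pathway genes, where 11.8% of all genes were called).

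The deviations of equally numbered replicates from their condition means had correlations from -0.125 to 0.287, with the highest between the clones. The labels tie no number to a shared batch or day, so the samples were taken to share only a number. Under a replicate block the counts of members called were 1 for Platr18 silencing, 7 for E1KD Platr18 KD against Empty vector, 7 for E1KD SCR, 2 for Platr18 overexpression, 7 for hnRNP E1 silencing, 5 for TGFβ, 0 for M1P and 2 for L1P, the same genes as without it. Of 1015 values of named genes under the alternatives, 995 kept their direction and side of the threshold, 12 passed it and 8 no longer did, and 0 reversed.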

Other observations

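Isg20, an exonuclease, had between 9.15 and 22.6 CPM over the 20 libraries and was highest in Platr18 clone 12. Ifi35 had 2.59 and 3.08 CPM in NMuMG and between 4.14 and 7.59 CPM in all others. Ifi27 had 0.920 and 0.792 CPM in NMuMG, 1.65 and 2.30 CPM after TGFβ and 3.15 and 1.497 CPM in E1KD. Ifih1, the sensor MDA5, ranged from 0.706 CPM in Platr18 clone 12 to 3.51 CPM in E1KD Platr18 KD.

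Trim25 was at 60.9 to 96.0 CPM in the first kind of library and at 14.6 to 21.5 CPM in the second, and the kinds were not compared by a test.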
